A study of Arabidopsis thaliana with 6 samples.

Results

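The genes described here are UPF2 (AT2G39260) and UPF3 (AT1G33980) of nonsense-mediated decay and PEL1 (AT4G27650) and HBS1 (AT5G10630) of ribosome rescue. They were chosen by name, as factors that work beside the ribosome-recycling protein RLI, and each was read from 1 probe set of the Affymetrix ATH1 array, 267009_at, 255979_at, 253882_at and 250452_at in that order. They are 4 of the 13286 loci with a probe set that names 1 gene. The gene tables used here give the symbols UPF3 and PEL1. The other 2 loci carry no symbol there, and the names UPF2 and HBS1 come with the choice of the genes.

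Nonsense-mediated decay is the surveillance pathway that removes mRNAs on which translation ends too early. UPF3 links UPF2 to the exon junction complex left by splicing, and UPF2 in turn activates the helicase UPF1. Pelota (PEL1 in Arabidopsis) and its GTPase partner HBS1 act on ribosomes stalled within or at the end of an mRNA, in the manner of the release factors eRF1 and eRF3, and RLI, an ATP-driven protein of the ABCE class, then splits the ribosome into its subunits. In plants this rescue is tied to the decay of the stalled mRNA by the exosome.

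RNA from whole plants of Arabidopsis thaliana, roots included, grown on soil, was hybridised to 6 one-colour arrays, 3 of wild type (WT) and 3 of a mutant labelled as carrying a T-DNA insertion in RLI, called rli here. The labels give the developmental stage as 3.20 weeks for all WT and 1.14 weeks for all rli samples. Whether these are ages or codes on a growth-stage scale is not clear from the labels, and no age is taken from them. The stage changes with genotype throughout, so genotype and labelled stage cannot be told apart in any difference below. Both groups carry the source name Co-1 and the stock code N1084, and the labels name neither the RLI locus that is interrupted nor the allele. The titles number the mutant samples rli-1 to rli-3 and also Rep1 to Rep3. They are treated as replicates, although the first form could also be read as 3 alleles. The labels do not say whether the replicates are separate harvests or plants, so each p-value reflects the variation among these arrays alone, and that variation may be technical.

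The 3 RLI loci of Arabidopsis had 0 named probe sets, so the mutation was not checked against its own transcript. WT replicate 3 stood apart, with correlations of 0.757 and 0.763 with the other WT arrays over all probe sets, against 0.919 between those 2 and at least 0.872 among the rli arrays. It also had the highest mean log2 ratio of 3' to 5' signal over 6 control pairs, 2.83, against 2.11 to 2.68 on the others. Its 25S rRNA control read 1927, against 285 and 344 on the other WT arrays and 863 to 1319 on the rli arrays. Differences of the members and listed loci that move with this array are given without it as well. Of the leaf markers, 2 of 6 had a named probe set, RCA and PSAN, and their summed intensity was 8857 to 10881 in WT and 5330 to 6820 in rli. Of the root markers, 2 of 7 had a named probe set, PYK10 and EXPA7. PYK10 read 855.3 to 1137 in WT and 1076 to 1254 in rli. PSAN, a photosystem I subunit, fell by 1.54 ± 0.27 log2 units (limma adjusted p = 0.0090, and 0.054 without rli replicate 3). Without WT replicate 3 its difference was -1.23 (limma adjusted p = 0.00042). RCA, the larger part of the leaf marker sum, stood at -0.39 ± 0.20 (limma adjusted p = 0.30). EXPA7, a gene of root hair cells, read between 0.956 and 15.7 on all arrays, below the filter level of 24.7. Root transcripts were therefore read through PYK10 alone. The 7 flower and 4 seed markers had 0 named probe sets and were not analysed here.

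None of the UPF2, UPF3, PEL1 and HBS1 transcripts passed the test between genotypes, 0 of 4, where 6.80% of the 13648 tested probe sets did (limma, Benjamini-Hochberg adjusted p below 0.05). The dimmest probe sets, with a mean log2 intensity below the 40th percentile, were not tested. UPF3 came nearest, at 0.689 times the WT level in rli, and was the 1 member with an unadjusted p below 0.05, as had 21.1% of all tested probe sets. PEL1, HBS1 and UPF3 had a lower mean in rli and UPF2 a higher one, with a median log2 difference of -0.22 over the 4, against 0.04 over all tested probe sets. All values below are MAS5 intensities as deposited, or their log2 values where stated, differences are rli minus WT, and n = 3 arrays per group. Less RNA per cell and fewer cells of a type cannot be told apart in RNA from whole plants.

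**Figure D1:**
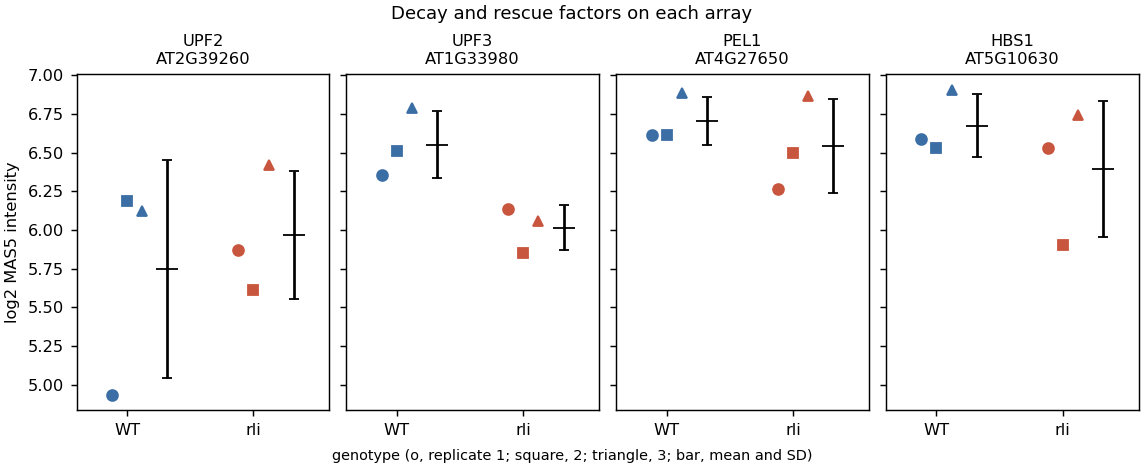
The log2 MAS5 intensity of UPF2, UPF3, PEL1 and HBS1 on each of the 3 WT and 3 rli arrays, with the mean and SD of each group beside the points; levels are not compared between genes. The groups are separate for UPF3, and for UPF2 the WT spread is set by replicate 1.

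UPF3, the bridge between the exon junction complex and UPF2, read 82.0, 91.4 and 110.6 on the WT arrays and 70.3, 57.8 and 66.7 on the rli arrays, in the order of replicates 1 to 3 here and below. Every rli array lay below every WT array, so the groups did not overlap, as for 12.9% of all tested probe sets in this direction. The mean intensity was 94.6 ± 14.6 (SD, n = 3) in WT and 64.9 ± 6.43 (SD, n = 3) in rli. The log2 difference was -0.54 ± 0.22 (standard error), with a 95% interval of -1.02 to -0.05, or 0.492 to 0.966 times the WT level. The adjusted p was 0.19 (limma), and an exact two-sided permutation test of the 6 arrays gave p = 0.1, the smallest that 3 against 3 allows. In size the difference exceeded that of 72.5% of the tested probe sets. The RefSeq gene table lists 2 transcripts of UPF3, and which of them the probe set reads was not analysed here.

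The lower UPF3 level did not rest on 1 array. Its difference lay between -0.64 and -0.42 with any 1 array left out, and was -0.42 without WT replicate 3 (adjusted p = 0.23), where 15.3% of the tested probe sets passed. Its adjusted p lay between 0.066, when the 3'/5' ratio entered the fit, and 0.37 over 18 alternatives. The leaf markers PSAN, which fell to 0.343 times the WT level, and RCA, at 0.761 times, were also lower on every rli array than on every WT array. For RCA, unlike UPF3 and PSAN, the groups overlapped after quantile normalization and after median centring. The part of these markers in the UPF3 difference was not tested.

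UPF2, the adaptor that joins UPF3 to the helicase, read 30.6, 72.8 and 69.8 in WT and 58.5, 48.8 and 85.8 in rli. WT replicate 1 was the lowest of the 6 arrays and rli replicate 3 the highest, while the other 4 values of both genotypes lay in between and overlapped. The log2 mean was 5.75 ± 0.71 (SD, n = 3) in WT and 5.97 ± 0.42 (SD, n = 3) in rli. On the log2 scale the difference was 0.22 ± 0.37 (limma adjusted p = 0.81), with a 95% interval of -0.62 to 1.06. That interval spans 0.652 to 2.08 times the WT level, so a lower UPF2 transcript and one that is 2-fold higher both lie within it. Leaving out WT replicate 1 turned the difference to -0.19 (adjusted p = 0.82), leaving out rli replicate 3 gave -0.01 (0.99), and leaving out WT replicate 3 gave 0.41 (0.52). With array weights it was 0.66 (0.16), and when the 3'/5' ratio entered the fit 0.01 (0.99). The direction of the UPF2 difference therefore depended on single arrays.

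UPF2 and UPF3 bind each other, and their log2 ratio within an array does not depend on how that array was scaled. The ratio of UPF2 to UPF3 averaged -0.80 ± 0.56 (SD, n = 3) in WT, with a range of -1.42 to -0.33, and -0.05 ± 0.36 (SD, n = 3) in rli, with a range of -0.26 to 0.36. The change of 0.76 left the groups separate by a small margin (exact two-sided permutation p = 0.1, or 0.4 after Benjamini-Hochberg adjustment over the 6 pairs of members). The share of other pairs of probe sets with separate groups was not analysed here. Without WT replicate 1, on which UPF2 was low, the change was 0.45. The other 5 pairs gave permutation p-values between 0.2 and 0.7 (exact, two-sided).

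PEL1, the Pelota protein that enters the empty A site of a stalled ribosome, read 98.1, 97.9 and 118.1 in WT and 77.1, 90.5 and 116.9 in rli. Replicates 1 and 2 of rli lay below all WT arrays and replicate 3 within their range. The log2 difference was -0.16 ± 0.22 (limma adjusted p = 0.76), with a 95% interval of -0.66 to 0.34, or 0.633 to 1.27 times the WT level. With 1 array left out the difference ran from -0.32, without rli replicate 3, to -0.02, without rli replicate 1, and was -0.07 without WT replicate 3. With array weights it was -0.02. The interval includes both no change and a level of PEL1 about as much lower as that of UPF3.

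HBS1, the GTPase that delivers Pelota to the ribosome, read 96.2, 92.6 and 120.1 in WT and 92.6, 59.9 and 107.3 in rli. Replicate 2 was the low array of rli, and the other rli arrays fell among the WT values. The log2 difference was -0.28 ± 0.26 (limma adjusted p = 0.60), with a 95% interval of -0.86 to 0.30, or 0.551 to 1.23 times the WT level. Without rli replicate 2 it was -0.04 (adjusted p = 0.96), without rli replicate 3 it was -0.46 (0.51), and without WT replicate 3 it was -0.17 (0.72). With array weights it was -0.04. The RefSeq gene table lists 5 transcripts of this locus, which by splicing also gives rise to a SKI7-like form that links the exosome to its SKI helper complex. Which forms the probe set reads was not analysed here.

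For the partners PEL1 and HBS1, the mean log2 ratio within an array differed by 0.12 between genotypes (exact two-sided permutation p = 0.7). Within WT, replicate 3 gave the highest value of UPF3, PEL1 and HBS1, that is of 3 of 4 members. Within rli, replicate 3 gave the highest value of UPF2, PEL1 and HBS1 and replicate 2 the lowest of UPF2, UPF3 and HBS1. The median intensity over all probe sets was likewise highest on replicate 3 of each group (52.98 in WT and 46.35 in rli). In rli it was lowest on replicate 2 (38.23). The share of all probe sets with this order was not analysed here.

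**Figure D2:**
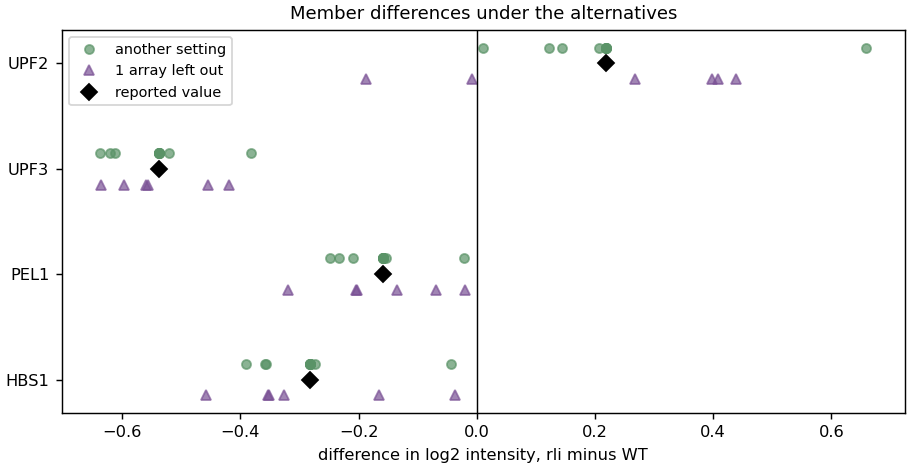
The rli minus WT difference in log2 intensity of each member as reported (diamond), under other settings of the analysis (circles) and with 1 array left out (triangles). UPF3 stays between -0.64 and -0.38, PEL1 and HBS1 stay below 0 but come within 0.04 of it, and UPF2 lies on both sides of 0.

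The nonsense-mediated decay list held 7 loci, and probe sets were named for UPF2, UPF3 and AT1G28260. AT1G28260 read 51.4, 72.9 and 80.7 in WT and 88.8, 77.8 and 68.8 in rli, overlapping groups with a log2 difference of 0.22 ± 0.25 (limma adjusted p = 0.69). It was 0.02 without WT replicate 1 and 0.35 without WT replicate 3. The helicase gene UPF1 was not analysed here. Of the 3 tested loci 0 passed and 1, UPF3, had an unadjusted p below 0.05, and their median difference was 0.22.

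The exon junction complex marks spliced mRNAs and is the platform that UPF3 recognises. Of its 6 listed loci 3 were tested, with 0 passing and 0 at an unadjusted p below 0.05, and a median log2 difference of 0.31. Y14, a core subunit, read 411.8, 450.0 and 310.6 in WT and 394.4, 307.1 and 376.2 in rli, a log2 difference of -0.11 ± 0.21 (limma adjusted p = 0.83), and of -0.27 (0.34) without WT replicate 3, its lowest WT array. Without WT replicate 2 or rli replicate 2 it was near 0, at -0.0017 and -0.0033. AT1G80000 stood at 0.31 ± 0.43 and AT1G15280 at 1.02 ± 0.62 (limma adjusted p = 0.75 and 0.40). AT1G15280 read 8.54 on WT replicate 3 against 49.9 and 48.5 on the other WT arrays, and without that array its difference was 0.18 and that of AT1G80000 -0.06. It passed when the 3'/5' ratio entered the fit (1.42, limma adjusted p = 0.034), a measure on which the same array was highest.

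Of the 10 loci listed for termination, recycling and rescue, 4 had a named probe set, PEL1, HBS1, AT1G18070 and AT3G58390. The first 3 were tested, all with a lower mean in rli, a median log2 difference of -0.16 and 0 at an unadjusted p below 0.05. AT1G18070 read 234.8, 254.8 and 158.7 in WT and 191.4, 218.3 and 182.5 in rli. Its log2 difference was -0.11 ± 0.23 (limma adjusted p = 0.85), -0.31 without WT replicate 3, the low array, and 0.03 without WT replicate 2. AT3G58390 was too dim to be tested, at 6.78, 0.568 and 54.2 in WT and 3.40, 3.36 and 4.50 in rli, where WT replicate 3 alone was above the filter level of 24.7.

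**Figure D3:**
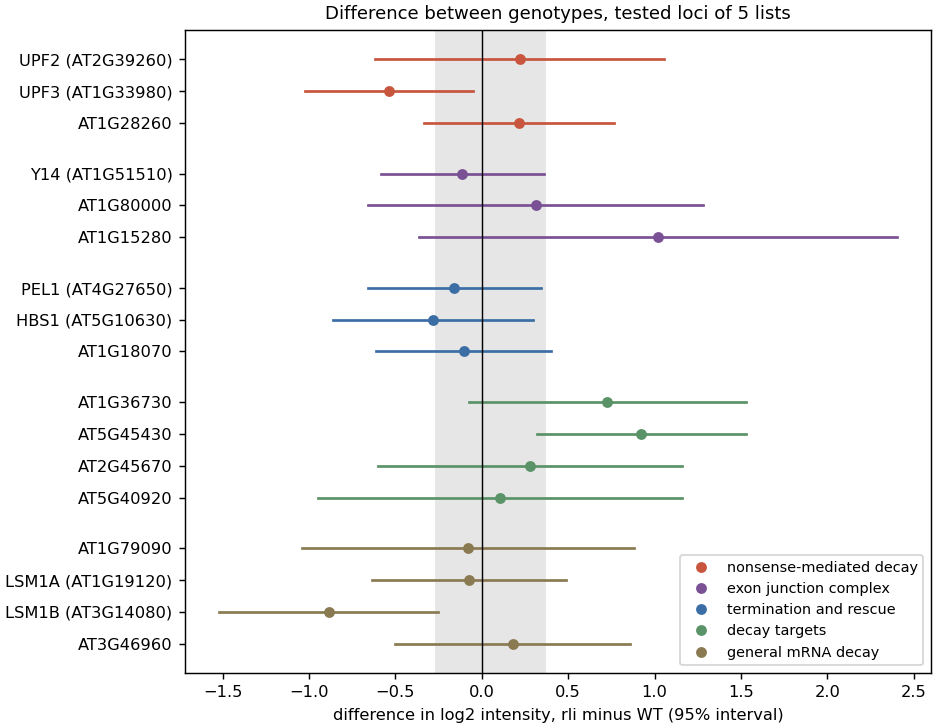
The rli minus WT difference in log2 intensity, with its 95% interval from limma, for the 17 tested loci of the 5 lists, coloured by list; the grey band holds the middle of all tested probe sets, from the lower quartile of -0.27 to the upper quartile of 0.36. The intervals of UPF3, LSM1B and AT5G45430 do not include 0, but none of the 17 passed after adjustment over all probe sets.

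Targets of nonsense-mediated decay accumulate when the pathway is impaired. The 6 loci listed here as its targets were recalled from the literature and not checked against a source. They were listed with earlier results of these data known. Their values are therefore not a proven reading of the pathway, and a shared direction among them is not independent evidence. A named probe set was found for 5 of the 6 listed loci, and 4 were tested. Of these 0 passed over all probe sets and 1 had an unadjusted p below 0.05. All 4 had a higher mean in rli on the full set of arrays, with a median log2 difference of 0.50, where 46.7% of all tested probe sets had a lower mean. In 2 of the 4 the groups did not overlap, as for 15.2% of the tested probe sets in this direction. In both of these the groups overlapped after median centring.

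AT5G45430 read 58.8, 85.2 and 47.7 in WT and 95.8, 145.8 and 116.8 in rli. All rli arrays were above all WT arrays, with a mean intensity of 63.9 ± 19.3 (SD, n = 3) in WT and 119.5 ± 25.1 (SD, n = 3) in rli. Its log2 difference was 0.92 ± 0.27 (limma adjusted p = 0.077), with a 95% interval of 0.32 to 1.53, or 1.90 times the WT level. It lay between 0.73 and 1.15 with any 1 array left out. It passed with array weights (0.76, limma adjusted p = 0.018) and when the 3'/5' ratio entered the fit (1.01, adjusted p = 0.018), and the groups overlapped after median centring (0.85, adjusted p = 0.35).

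AT1G36730 read 216.7, 218.2 and 81.8 in WT and 263.7, 302.3 and 220.0 in rli. The groups were separate by a small margin, and WT replicate 3 stood far below the other arrays. They differed by 0.73 ± 0.36 log2 units (limma adjusted p = 0.29), and by 0.26 (0.39) without that array. It passed when the 3'/5' ratio entered the fit (0.98, limma adjusted p = 0.010), and the groups overlapped after median centring (0.65, limma adjusted p = 0.65).

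AT2G45670 read 38.2, 41.0 and 114.0 in WT and 70.3, 61.0 and 74.3 in rli. The first 2 WT arrays lay below all rli arrays and WT replicate 3 above them. The log2 difference was 0.28 ± 0.39 (limma adjusted p = 0.76), and 0.79 (0.051) without WT replicate 3, against -0.0018 without WT replicate 1. AT5G40920, listed as a transcribed pseudogene, had the same pattern, at 19.6, 30.6 and 69.8 in WT and 34.7, 33.7 and 44.7 in rli, with log2 differences of 0.11 ± 0.47 and of 0.61 without WT replicate 3 (limma adjusted p = 0.93 and 0.31). Its direction turned without WT replicate 1 (-0.30) or rli replicate 3 (-0.02), when the 3'/5' ratio entered the fit (-0.19) and after quantile normalization (-0.12). So the size of the difference in 3 of the 4 tested targets depended on WT replicate 3, which was low for AT1G36730 and high for AT2G45670 and AT5G40920. The direction in AT2G45670 and AT5G40920 turned without WT replicate 1, where AT1G36730 and AT5G45430 alone of the 4 had a higher mean in rli.

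AT3G63340 was below the filter on dim probe sets and had no test in the main comparison. It read 2.00, 0.273 and 11.4 in WT and 46.1, 38.0 and 22.6 in rli, so the groups did not overlap. All but 1 of the WT values lay below the 20th percentile of all intensities, 9.34. With low values raised to that floor the log2 difference was 1.77, or 3.41 times the WT level. With no filter the probe set was tested and did not pass (limma adjusted p = 0.15).

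**Figure D4:**
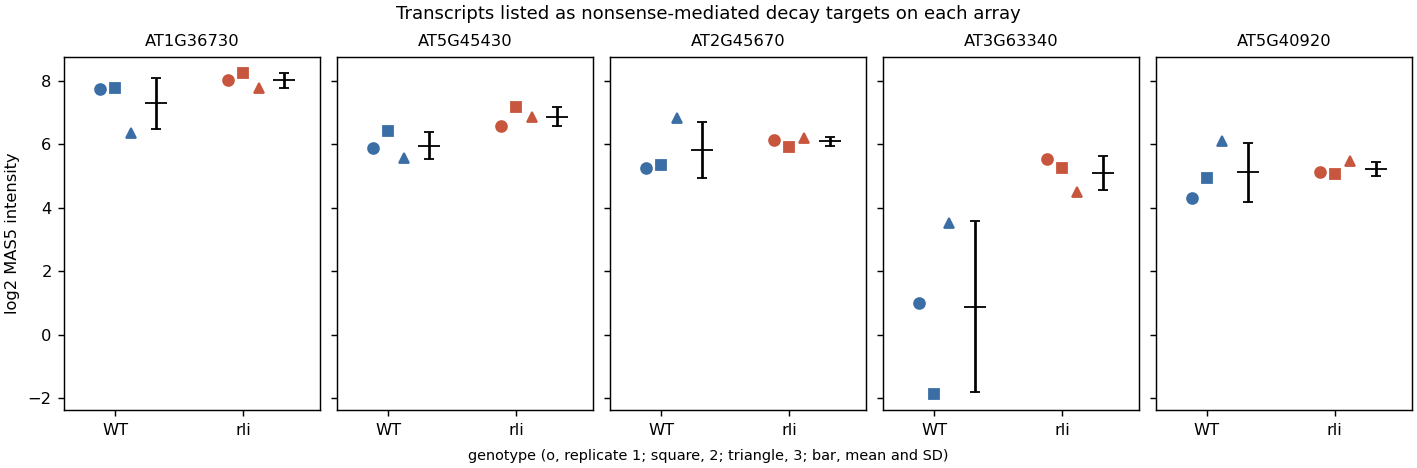
The log2 MAS5 intensity of the 5 listed decay target transcripts on each WT and rli array, with the mean and SD of each group beside the points; levels are not compared between genes. All rli arrays lie above all WT arrays for AT1G36730, AT5G45430 and AT3G63340, while WT replicate 3 lies above the rli arrays for AT2G45670 and AT5G40920. The margin is small for AT1G36730, and AT3G63340 was too dim to be tested in the main comparison.

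The general mRNA decay list held 15 loci, 5 with a named probe set and 4 tested, of which 0 passed and 1 had an unadjusted p below 0.05, with a median log2 difference of -0.08. That locus was LSM1B, of the decapping activator ring, which read 90.6, 83.0 and 133.5 in WT and 44.6, 47.5 and 74.9 in rli (-0.89 ± 0.28, limma adjusted p = 0.10). Without WT replicate 3 its difference was -0.68 (limma adjusted p = 0.11). The next smallest p was that of AT3G46960, at 0.18 ± 0.30 (limma adjusted p = 0.81), and at -0.12 without WT replicate 3.

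The genes with the most similar pattern over the 6 arrays were sought among 1050 other tested probe sets with a gene symbol, by the root mean square difference of log2 values centred on each gene's own mean. Nearest to UPF3 were NRPB12, a subunit of RNA polymerases, at 0.091 log2 units, and AR401, at 0.098, where UPF3 itself varied by 0.308 about its mean. NRPB12 stood at -0.61 ± 0.18 (limma adjusted p = 0.074) and AR401 at -0.47 ± 0.20 (0.21). Nearest to PEL1 were PDIL5-1 (0.076) and SERPIN1 (0.094), where PEL1 itself varied by 0.212. Nearest to HBS1 were AUR1, an Aurora kinase of dividing cells (0.133), and MENG (0.137), where HBS1 itself varied by 0.312. UPF2, with the profile set by WT replicate 1, had the most distant matches of the members, with XCT and DDL both at 0.24 against a variation of its own of 0.485.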

How the data were processed

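The authors deposited 1 linear intensity per probe set. The submitters' processing notes name MAS5 and GCOS, and their versions are not given in the sources used here. Without the lowest and highest 2% of the 22810 probe sets, the mean was the same on all arrays (100 after rounding), so the values were used as deposited on the log2 scale. The median intensity still differed, at 35.81, 36.62 and 52.98 on the WT arrays and 45.8, 38.23 and 46.35 on the rli arrays. It was not made equal in the main fit. No detection calls were used. Probe sets were named through the platform's gene table and the RefSeq gene table (TAIR10.1). Of the 22810 probe sets, 13436 were named with 1 gene. A locus without a named probe set may still have a probe set on the array. Coordinates and sequences were not used.

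After removal of 64 control probe sets, those with a mean log2 value at or above the 40th percentile (4.63) were tested, 13648 in all, with limma 3.58.1 in R 4.3.3 (lmFit, eBayes with an intensity trend, two-sided, Benjamini-Hochberg). Permutation tests used scipy 1.17.1 and figures matplotlib 3.10.9. The fit was run on simulated data with independent noise of equal spread on every array. These data held no outlying array, so the run does not show how the fit handles such an array. The members and lists were chosen with earlier results of these data known. All members and listed loci with a named probe set may be given, with the 2 of smallest p for general decay and the 2 most alike with a symbol per member. RCA, PSAN, PYK10 and EXPA7 are tissue markers.

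Alternatives tried were median centring or quantile normalization, no filter or one at the 60th or 20th percentile, low values raised to a floor (the 20th percentile, 9.34) or shifted by the 10th percentile (2.45) before taking logs, array weights, robust variance, a fit with no intensity trend, the mean 3'/5' ratio of the control transcripts in the fit, a replicate block, and leaving out each array. Arrays have no read depth, and their number limits the precision.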

Additional observations from a re-analysis of the deposited data

How the results depend on the processing

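Over 71 alternative values of the 4 members, none passed the threshold and 2 turned direction, UPF2 at -0.19 without WT replicate 1 and -0.01 without rli replicate 3, with a range of -0.19 to 0.44 over single arrays left out. UPF2 was 0.66 with array weights, and 0.01 when the 3'/5' ratio entered the fit. UPF2 was not tested with the filter at the 60th percentile. The 928 changed probe sets became 332 after median centring, 593 without the intensity trend, 3181 with array weights, 2134 with the 3'/5' ratio in the fit, and 389 to 2085 with 1 array left out; the cause was not tested. The lists had 0 changed members except for decay targets, with 2 under array weights (AT5G45430 and AT2G45670), 2 with the 3'/5' covariate (AT5G45430 and AT1G36730) and 1 with the replicate block (AT5G45430), the exon junction complex, with 1 under the 3'/5' covariate (AT1G15280), and general decay, with 1 under the replicate block and 1 under the 3'/5' covariate (LSM1B both times). With the replicate number as a block 1300 probe sets changed, and the adjusted p-values of UPF2, UPF3, PEL1 and HBS1 were 0.75, 0.21, 0.74 and 0.52. Same-numbered samples deviated from their group means with correlations of -0.09, 0.33 and 0.32 for replicates 1, 2 and 3. WT replicate 1 correlated best with rli replicate 2 (0.27). With 3 arrays per group the deviations within a group are not independent, so these values cannot decide whether the numbers pair the samples. Failing the threshold does not show that a level was alike in both genotypes: the interval of UPF2 reaches 2.08 times the WT level, and dim signals are not resolved without detection calls.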
